A study of Mus musculus with 33 samples.

Results

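The 10 genes described here encode the enzymes that make prostaglandins E2 and D2 and the receptors for prostaglandin E2: the cyclooxygenases *Ptgs1* and *Ptgs2*, the PGE synthases *Ptges*, *Ptges2* and *Ptges3*, the PGD synthase *Ptgds*, and the receptors *Ptger1*, *Ptger2*, *Ptger3* and *Ptger4* (EP1 to EP4). They were chosen by gene symbol, with earlier results of these data known, and each matched 1 of the 41565 named entries of the deposited expression table. All 10 lay at or above 2 times the detection floor of the table in every library and passed the filter on low values in both brain regions.

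Cyclooxygenases turn arachidonic acid, released from membranes by phospholipases, into prostaglandin H2, from which terminal synthases make the individual prostaglandins. *Ptgs1* is the constitutive form and *Ptgs2* (COX-2) the inducible one, which in neurons behaves as an early-response gene and in brain endothelial cells is induced by circulating cytokines during fever. Prostaglandin E2 acts in the preoptic area, where EP3 receptors on thermoregulatory neurons are known to mediate the febrile rise in body temperature. Prostaglandin D2, made in the brain mainly by the lipocalin-type synthase *Ptgds*, is known for its part in sleep.

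The libraries came from female wild-type mice, ovariectomized (OVX) on both sides at 3 to 4 months of age and killed 14 days or 4 months later, or left intact and killed in diestrus. The posterior hypothalamus (PH) gave 4 libraries from intact mice, 6 at 14 days and 6 at 4 months, and the preoptic area (POA) gave 5, 6 and 6. Control titles say sham where another label and the methods say intact, the time of 1 POA library labelled only with the number 14 was read from its title, and the long-term group had no intact group of its own age, so time after OVX and age cannot be told apart. The labels place 2 or 3 libraries of each group in each of 2 batches. They number the libraries as replicates without stating that each was a separate mouse, so *P* values measure the spread between these libraries.

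Values are normalized linear signal and not read counts, and genes that are not measurably expressed sit near 22.4, here called the floor. Values summed to between 44534053 and 54486361 per library, apart from 72945400 in PH 14-day replicate 5, and the read depth behind them is unknown. In PH 14-day replicate 5, the first surrogate variable (SV1, an estimate of variation not due to the groups, used as a covariate) was 0.785, against −0.311 to 0.195 in the other PH libraries. In the POA, SV1 separated the labelled batches, with 0.187 to 0.352 in batch 1 and −0.322 to −0.125 in batch 2. All 12 neuron markers, 10 astrocyte markers, 12 microglia markers and 9 transcription factors of the hypothalamus were at 2 times the floor or more in every library. Red blood cell markers moved with the groups: all 5 had higher values at 4 months than in intact mice at an unadjusted *P* under 0.05 in each region, with summed values of 6507 to 8426 in intact and 12094 to 37251 in 4-month PH libraries and of 7050.0 to 16431 and 9569 to 22657 in POA libraries. Of these, 1 was called, *Alas2* in the PH (adjusted *P* = 0.0302, limma). Of 12 microglia markers, 8 were higher and 1 lower at 4 months in the POA at that threshold, with 1 called (*C1qa*, adjusted *P* = 0.0427, limma), and 7 were higher and 1 lower in the PH, with 0 called. The part of either in the member values was not tested. In these tissue samples, fewer cells of a type and less RNA per cell cannot be told apart.

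No member was called in any of the 6 comparisons by limma on log2 values with SV1 (adjusted *P* under 0.05 over all genes tested). Few genes of any kind were: the share of all genes called was 0% at 14 days, 0.0321% at 4 months and 0.00917% between 4 months and 14 days for PH tissue, with 0.00472%, 0.0945% and 0.0283% for POA tissue. At an unadjusted *P* under 0.05, 0 of 10 members passed in each PH comparison (3.03%, 6.09% and 4.09% of all genes) and at 14 days in the POA (6.14%). In the POA, 2 of 10 passed at 4 months against intact (8.5% of all genes) and 2 of 10 at 4 months against 14 days (5.1%). Both times these were *Ptgs2*, with higher values at 4 months, and *Ptger3*, with lower ones. The median log2 fold change over the 10 members at 4 months against intact was 0.01 (PH) and 0.04 (POA), beside −0.01 in each region over all genes tested.

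**Figure D1:**
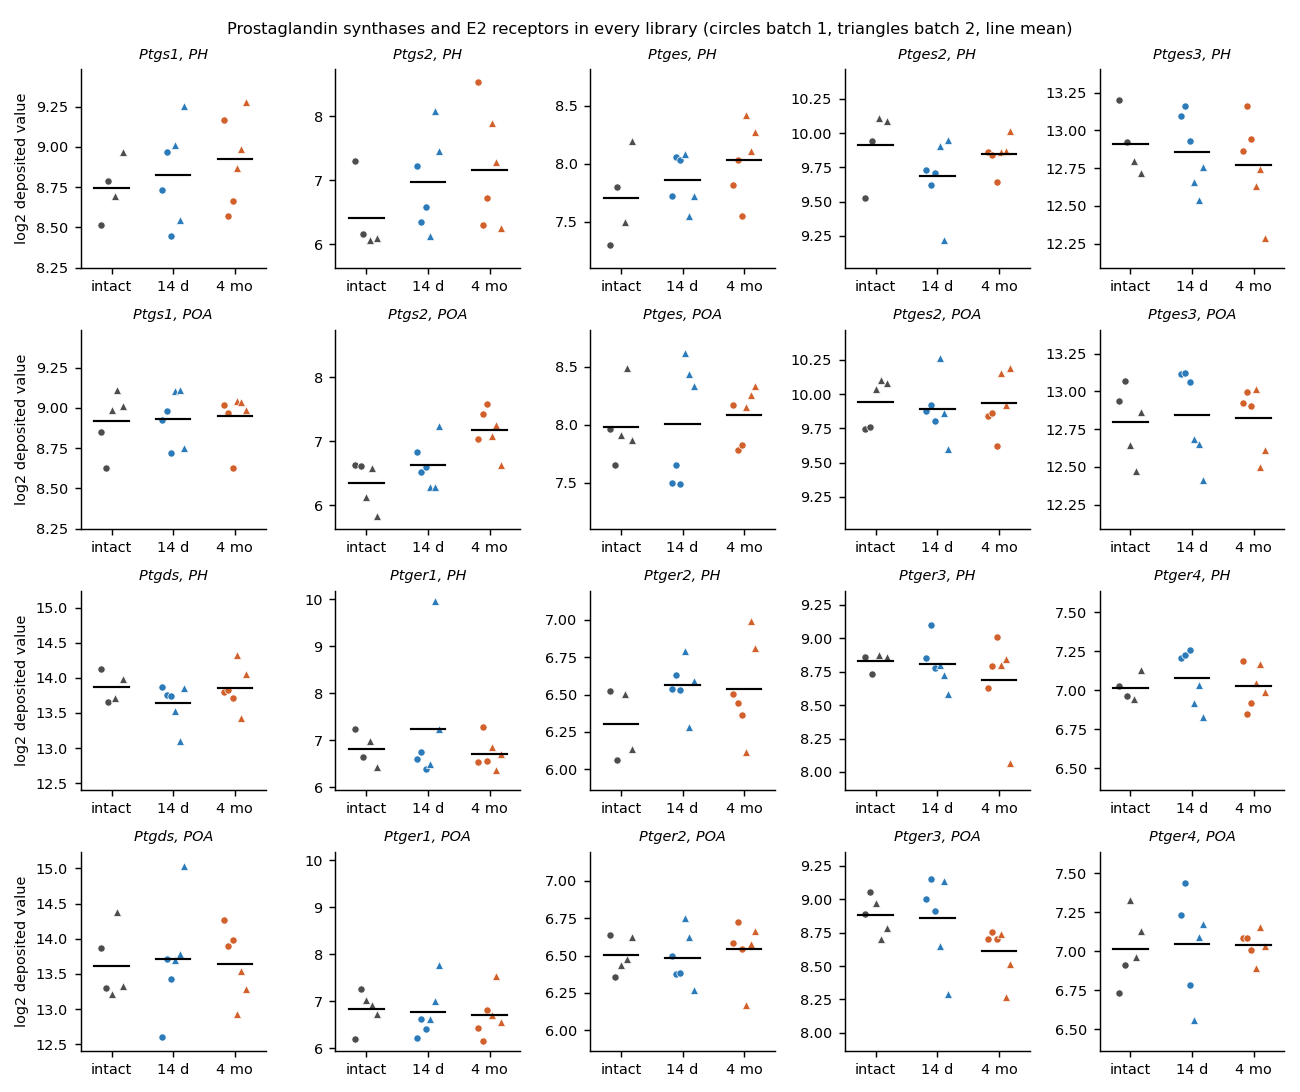
Log2 deposited value (vertical axes) of the 10 members in every library by group (intact, and 14 days or 4 months from OVX) for each region, with circles for batch 1, triangles for batch 2 and a line at the group mean; both panels of a gene share 1 scale. *Ptgs2* in the POA is the only member whose 4-month libraries all lie above all intact ones, and 1 PH library stands far above the others for *Ptger1*.

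**Figure D2:**
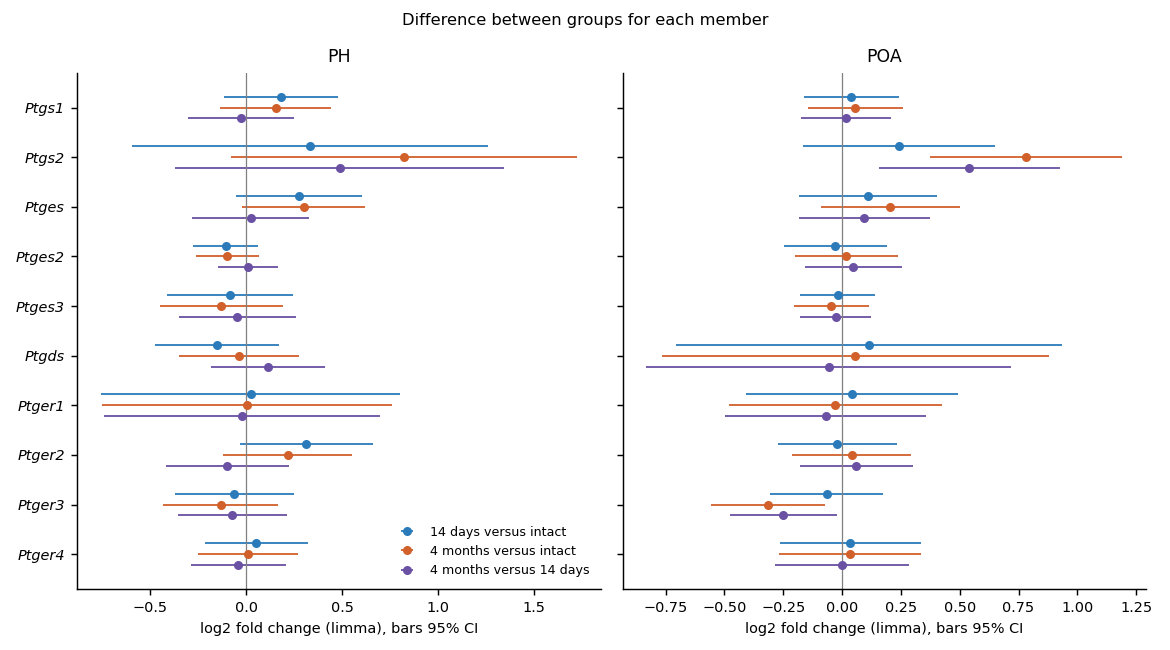
Log2 fold change of each member from limma (points) with its 95% confidence interval (bars) for the 3 comparisons in the PH and the POA; the 2 panels have different horizontal scales. The interval leaves out 0 for *Ptgs2* and *Ptger3* in the POA at 4 months, against intact and against 14 days, and for no other member.

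*Ptgs2* lies on chromosome 1 (GRCm39, chr1:149975194-149983978, plus strand). A stretch of 30 bases just downstream of its RefSeq start is shown because it holds the core of a cAMP response element overlapping an E-box, elements through which early-response genes are known to be switched on. For comparison, stretches of the same length are shown from the promoters of *Btg2*, *Dusp1* and *Npas4*, the 3 early-response genes called in the POA. These 3 were chosen because they were called, and promoters of the other early-response genes were not examined one by one. Among those not examined, *Egr1*, *Fosb*, *Nr4a3* and *Per1* had lower values in the long-term POA group than in intact mice. Whether such cores go with higher values after OVX was not tested. Capitals mark such cores (TGACG or its reverse complement CGTCA) and the E-box CACGTG, each line being read 5′ to 3′ on the strand of the gene.
Ptgs2: gagtcaccactaCGTCACGTGgagtccgct
Btg2: tgttcccaataaTGACGTCAgtgagcgatg
Dusp1: ctcctaggccgaTGACGtctttgcttttgg
Npas4: tctcccgttcgaCGTCAcgggaTGACGtcg

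These stretches lie in GRCm39 at chr1:149975783-149975812 on the plus strand for *Ptgs2*, and on the minus strand at chr1:134007042-134007071 for *Btg2*, chr17:26727620-26727649 for *Dusp1* and chr19:5040161-5040190 for *Npas4*. GENCODE M39 places the *Ptgs2* and *Npas4* stretches in untranslated exon sequence of transcripts of these genes, the *Dusp1* stretch in an exon of the overlapping gene *Gm56886*, and the *Btg2* stretch in no exon. RefSeq promoter windows (table build GRCm38.p6) of 300 bases, 250 before and 50 after the start, were available for 9 of the 10 members and not for *Ptger1*. The core on either strand was present in 2 of these 9 windows, those of *Ptgs2* and *Ptges3*, and in 20.8% of all 32851 windows. The E-box was present in 2 of 9, *Ptgs2* and *Ptges2*, against 7.15% of all windows. The C/EBP palindrome TTGCGCAA was found in 1 of 9, starting 69 bases before the *Ptgs2* start, and in 0.183% of all windows. An NF-κB consensus site was found in 2 of 9, *Ptges3* and *Ptgds*, against 8.46% of all windows, and the TATA box TATAAA in 0 of 9 against 13.6%. A match describes letters in a window and not the binding of a factor.

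In the POA, *Ptgs2* was measured at 98.9, 97.8, 70.0, 95.7 and 57.1 in the 5 intact libraries, in order of replicate number. At 14 days it was 114, 91.7, 96.6, 77.9, 78.0 and 152, and at 4 months 131, 172, 192, 136, 153 and 99.2. Every 4-month library was above every intact library, whereas the 14-day libraries overlapped both groups. Means were 83.9 ± 19.2 (SD, n = 5), 102 ± 28.1 (n = 6) and 147 ± 32.7 (n = 6). For no other member did these 2 groups separate, in either direction. Of all genes tested, 0.411% (87 of 21165) had every 4-month POA library above every intact one and 0.255% every one below.

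The fitted log2 fold change of *Ptgs2* in the POA at 4 months against intact was 0.78 ± 0.19 (SE), a fold of 1.72 with a 95% interval of 1.30 to 2.28. It ranked 77 by *P* among 21165 genes, with an unadjusted *P* of 0.00073 and an adjusted *P* of 0.197 (limma), and was not called. Against 14 days, the log2 difference was 0.54 ± 0.18 (adjusted *P* = 0.815, limma), and between 14 days and intact it was 0.24 ± 0.19 (adjusted *P* = 0.88, limma). The log2 difference of the means at 4 months was 0.73 within batch 1 and 0.81 within batch 2. It was not called in the main fit with any single library left out, and it was called under 2 alternatives. With SV1 and batch together the log2 fold change was 0.95 and the adjusted *P* 0.0219 (limma). In the POA, SV1 already separated the 2 batches, so the covariates of that fit largely overlap, and 0.95 lies above both within-batch differences. With 2 choices changed at once, batch in place of SV1 and POA 14-day replicate 6 left out, the log2 fold change was 0.78 with an adjusted *P* of 0.0325 (limma).

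**Figure D3:**
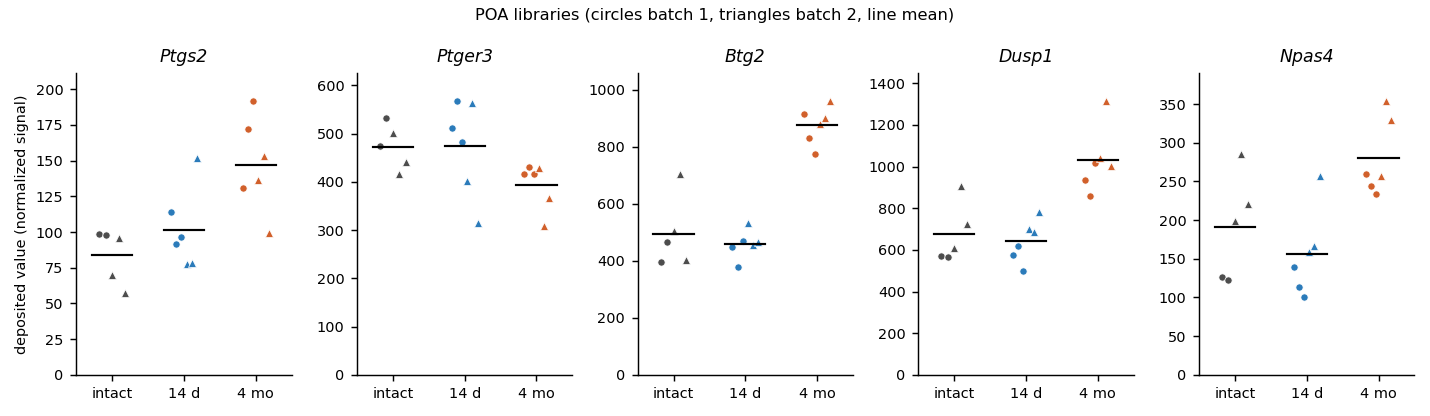
Deposited value (normalized signal, vertical axes from 0) of *Ptgs2*, *Ptger3* and 3 early-response genes in each POA library by group, with circles for batch 1, triangles for batch 2 and a line at the mean. *Ptgs2*, *Btg2* and *Dusp1* are shown with 4-month values from 99.2, 774 and 860 upward; *Ptgs2* and *Btg2* have no intact library that high, and *Dusp1* has 1.

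The 5 protein-coding genes most like *Ptgs2* across the 17 POA libraries, by Pearson correlation of log2 values centred within batch, were *Trim16* (r = 0.90), the vault protein gene *Mvp* (0.82), the transcription kinase gene *Cdk12* (0.81), *Apol11b* (0.80) and the extracellular protease gene *Adamts1* (0.80). Without POA 14-day replicate 6 these values lay between 0.78 and 0.89. The median over all protein-coding genes tested was −0.08, and over 20 immediate early genes 0.18 (0.39 without that library). *Adamts1* was measured at 395 to 678 in intact POA libraries, 402 to 589 at 14 days and 655 to 1314 at 4 months. With the mean log2 level of 12 endothelial markers the correlation of *Ptgs2* was 0.62 in the POA (Spearman 0.49, 0.48 without the 2 libraries farthest from the median of the markers, 0.85 within batch 1 and 0.45 within batch 2) and −0.22 in the PH. With 5 red blood cell markers it was 0.58 in the POA (Spearman 0.49, 0.39 without the 2 farthest libraries, 0.92 and 0.29 within batches 1 and 2) and 0.15 in the PH. With 12 neuron markers it was −0.52 in the POA (Spearman −0.59, −0.19 without the 2 farthest libraries, −0.50 and −0.55 within batches) and −0.07 in the PH. Summed endothelial markers ranged from 13955 to 14887 in intact POA libraries, 13628 to 15989 at 14 days and 14459 to 18026 at 4 months, and the part of these cell types in the *Ptgs2* values was not tested.

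In the PH, *Ptgs2* was 157, 72.0, 67.5 and 68.4 in the intact libraries. At 14 days it was 149, 81.3, 96.5, 70.2, 272 and 176, and at 4 months 371, 79.0, 106, 238, 155 and 76.6. Each OVX group held libraries between 70.2 and 81.3 together with others at 238 or above, so the 3 groups overlapped, and no member had every 4-month PH library above every intact one (0.555% of all genes did). The log2 fold change at 4 months against intact was 0.82 ± 0.42 (adjusted *P* = 0.835, limma), close to the POA value but with a wider SE. The log2 difference at 4 months was 0.46 within batch 1 and 1.06 within batch 2, and at 14 days −0.01 and 1.14. The spread of *Ptgs2* around its group means in the PH (residual SD 0.71 on the log2 scale) was at percentile 98.1 among the 1000 genes nearest in level.

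The 5 genes most like *Ptgs2* across 16 PH libraries were *Prdm8* (r = 0.95), *Neurod2* (0.94), *Mas1* (0.94), *Fam163b* (0.94) and *Lct* (0.93), and without PH 14-day replicate 5 these values were 0.92 to 0.94. *Neurod2*, a transcription factor of excitatory neurons of the cortex and hippocampus, was 888 in 4-month replicate 1, 785 in 4-month replicate 4, 649 in 14-day replicate 5 and 517 in intact replicate 1, and 73.2 to 277 in the other PH libraries. *Ptgs2* was 371, 238, 272 and 157 in those 4 libraries. The median correlation over all protein-coding genes was −0.01, and over 20 immediate early genes −0.01 (0.17 without that library).

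A list of 7 genes of excitatory neurons in cortex and hippocampus (*Neurod2*, *Neurod6*, *Emx1*, *Slc17a7*, *Tbr1*, *Bhlhe22* and *Fezf2*) was written after those most alike genes were seen, so the following is a description. Of the 7 genes, 6 were at 2 times the floor or more in every library. Their summed value ranged from 2974 to 5276 in intact PH libraries, 2339 to 6080.3 at 14 days and 2721 to 9458 at 4 months, the highest being 4-month replicates 1 (9458) and 4 (8034). *Ptgs2* and the mean log2 level over the list correlated at r = 0.91 across the 16 PH libraries (Spearman 0.83), at 0.84 without the 2 libraries farthest from the median of the list, and at 0.92 within batch 1 and 0.90 within batch 2. In the POA the same correlation was 0.38 (n = 17, Spearman 0.41), 0.29 without the 2 farthest libraries, and 0.26 and 0.70 within batches 1 and 2. Choroid plexus markers, with summed values of 2950 to 83149 across PH libraries, correlated with *Ptgs2* at 0.75 in that region (0.66 without the 2 farthest libraries, 0.88 and 0.62 within batches 1 and 2) and 0.22 in the POA. Whether these PH libraries held tissue from outside the hypothalamus was not tested.

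**Figure D4:**
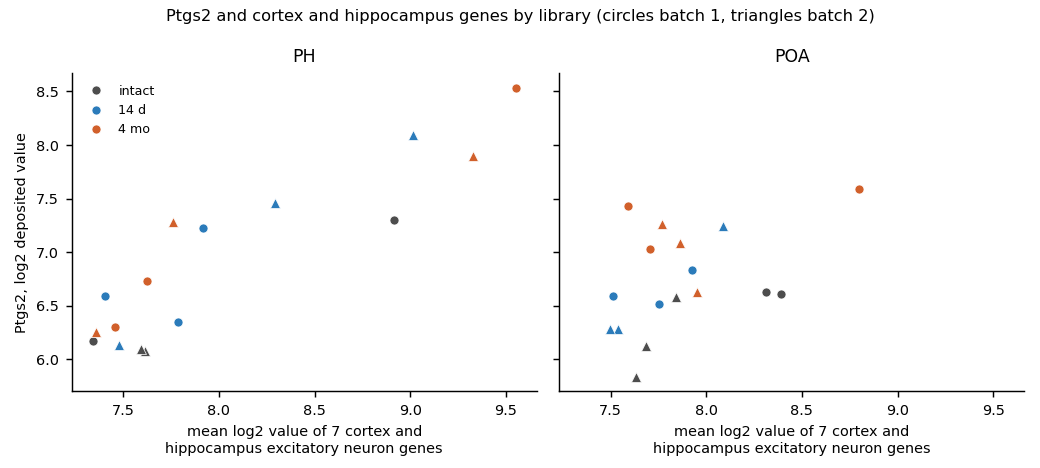
Log2 deposited value of *Ptgs2* (vertical axis) against the mean log2 value of 7 genes of cortex and hippocampus excitatory neurons (horizontal axis) in each library of the PH and the POA, colored by group, with circles for batch 1 and triangles for batch 2. In the PH, r is 0.91 and the 3 libraries highest in the list are the 3 highest in *Ptgs2*; in the POA, r is 0.38.

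*Ptgs1*, the constitutive cyclooxygenase (chr2:36120438-36142287, plus strand), was in the PH 366, 442, 415 and 500 in intact libraries, 349 to 610 at 14 days (median 463) and 381 to 622 at 4 months (median 487). In the POA it was 462, 395, 508, 552 and 515 in intact libraries, 422 to 552 at 14 days (median 495) and 395 to 527 at 4 months (median 513). The groups overlapped in both regions, and the log2 fold change at 4 months was 0.15 ± 0.14 for PH (adjusted *P* = 0.916, limma) and 0.06 ± 0.10 for POA (adjusted *P* = 0.907). In the POA the 95% interval of the latter was −0.15 to 0.26, so a change of the size fitted for *Ptgs2* lay outside it.

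Of the PGE synthases, *Ptges* (microsomal PGE synthase, functionally coupled to COX-2) was 158, 223, 181 and 294 in intact PH libraries, 187 to 271 at 14 days and 187 to 342 at 4 months. In the POA it was 249.5, 202, 240.4, 359.9 and 234 in intact libraries, 180 to 392 at 14 days and 221 to 322 at 4 months. Fitted log2 fold changes at 4 months were 0.30 ± 0.15 for PH (adjusted *P* = 0.831, limma) and 0.20 ± 0.14 in the POA (adjusted *P* = 0.728). The 14-day POA libraries split by batch, with 180 to 201 in batch 1 and 322 to 392 in batch 2.

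*Ptges2*, a membrane-associated PGE synthase, ranged from 595 to 1105 in the PH and from 777 to 1231 in the POA. *Ptges3*, the cytosolic PGE synthase that is also the HSP90 cochaperone p23, ranged from 5006 to 9436 in the PH and from 5448.3 to 8911 in the POA. Neither differed between groups beyond the spread of the libraries: at 4 months against intact, the log2 fold change of *Ptges2* was −0.10 ± 0.08 (PH) and 0.02 ± 0.10 (POA), and that of *Ptges3* −0.13 ± 0.15 (PH) and −0.05 ± 0.08 (POA; adjusted *P* of 0.9 or more for all 4, limma). The lowest PH value of *Ptges2*, 595, belonged to 14-day replicate 5, the library with the extreme SV1. The whole span of *Ptges3* is overlapped on the other strand by the noncoding gene *Gm47438*.

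*Ptgds*, the lipocalin-type PGD synthase of meninges, choroid plexus and oligodendrocytes, varied more between libraries than between groups. In the POA it was 14972, 10109, 9504, 21313 and 10282 in intact libraries. At 14 days it was 6233, 13461, 10980, 13223, 14031 and 33477, and at 4 months 19623, 15236, 16221, 7797, 11887 and 9933. The lowest and the highest POA library both belonged to the 14-day group. Its residual SD in the POA, 0.63 on the log2 scale, was at percentile 99.8 among the 1000 genes nearest in level, whose median was 0.10. The log2 fold change at 4 months was 0.06 ± 0.38 in the POA (95% interval −0.77 to 0.88, adjusted *P* = 0.981, limma). In the PH, *Ptgds* ranged from 8765 to 20429, and the fitted log2 change after 4 months was −0.04 ± 0.15 (adjusted *P* = 0.982).

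The genes most like *Ptgds*, by the same measure, were across 17 POA libraries *Slc22a6* (r = 0.95), *H2-Q1* (0.95), *Mpzl2* (0.95), *Fmod* (0.94) and *Fn1* (0.94), and across 16 PH libraries *Fmod* (0.91), *Pla2g3* (0.88), *Tuba1c* (0.88), *B3gnt8* (0.86) and *Islr* (0.85). *Slc22a6*, an organic anion transporter of meningeal fibroblasts, was 57.6 in POA 14-day replicate 1 and 427 in replicate 6, the libraries lowest and highest in *Ptgds*. With the mean log2 value of 12 markers of fibroblasts of the leptomeninges, the thin membranes over the brain, which include *Slc22a6* and *Islr*, *Ptgds* correlated at r = 0.94 in the POA (Spearman 0.93) and 0.77 in the PH (Spearman 0.85). Without the 2 libraries farthest from the median of the list these were 0.89 and 0.79, and within batches 0.93 and 0.95 (POA) and 0.78 and 0.91 (PH). All 12 markers were at 2 times the floor or more in every library, with summed values of 4496 to 11442 in intact POA libraries, 6891 to 14927 at 14 days and 5537 to 9636 at 4 months. *Ptges* correlated with the same list at 0.67 in the POA (0.75 and 0.65 within batches) and 0.14 in the PH (−0.35 and 0.58). With 6 perivascular macrophage markers, 3 of them at 2 times the floor or more in every library, *Ptgds* correlated at 0.82 in the POA. There it was Spearman 0.79, 0.74 without the 2 farthest libraries, and 0.81 and 0.83 within batches. In the PH the correlation with these markers was 0.39 (0.76 and 0.39 within batches). Correlations of *Ptgds* with choroid plexus and oligodendrocyte markers are not given here. The choroid plexus marker *Ttr* was 55902 in POA 14-day replicate 1 and 46897 in replicate 6, the libraries lowest and highest in *Ptgds*. The amount of meninges in each dissection was not tested.

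**Figure D5:**
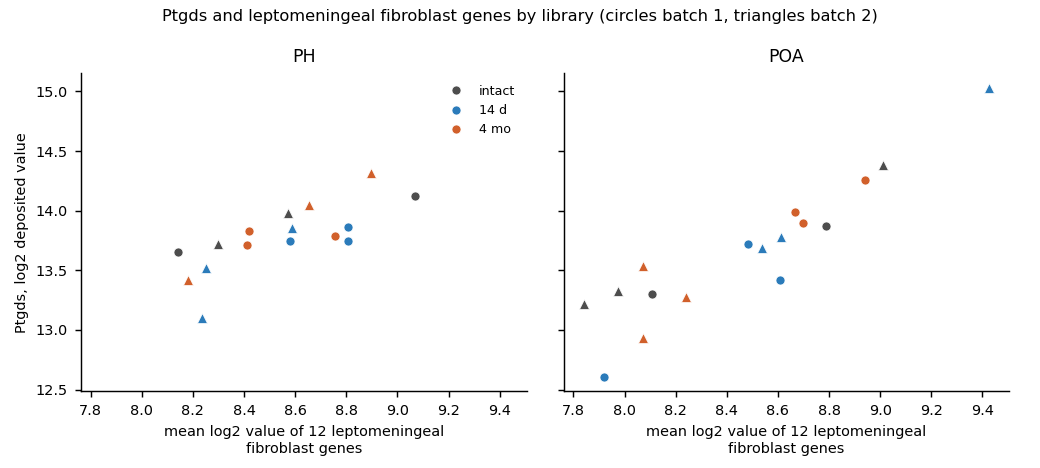
Log2 deposited value of *Ptgds* (vertical axis) against the mean log2 value of 12 leptomeningeal fibroblast markers (horizontal axis) in each library of the PH and the POA, colored by group, with circles for batch 1 and triangles for batch 2. The correlation is 0.94 in the POA and 0.77 in the PH, and libraries of all 3 groups are spread along it.

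Among the receptors, *Ptger3* (EP3, a mainly Gi-coupled receptor, chr3:157272492-157352099, plus strand) was the one that passed an unadjusted *P* under 0.05, with lower values in the POA at 4 months. It was 475, 531, 501, 416 and 441 in intact POA libraries. At 14 days it was 511, 568, 482, 402, 564 and 314, and at 4 months 416, 432, 416, 428, 308 and 366. Of the intact libraries, 1, replicate 4, lay within the range of the 4-month group and 4 lay above it. The log2 fold change was −0.32 ± 0.12 against intact (unadjusted *P* = 0.0128, adjusted *P* = 0.411, limma) and −0.25 ± 0.11 against 14 days (adjusted *P* = 0.963), and neither was called. Within batches, the log2 difference against intact was −0.25 in batch 1 and −0.31 in batch 2. In the PH, *Ptger3* was 463, 424, 470 and 465 in intact libraries, 383 to 549 at 14 days and 268 to 514 at 4 months, and the log2 fold change at 4 months was −0.13 ± 0.14 (adjusted *P* = 0.931).

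Across the 17 POA libraries, on log2 values centred within batch, *Ptger3* was lower where *Ptgs2* was higher (r = −0.74, Spearman −0.77, −0.73 without the 2 libraries farthest from the median of *Ptger3*, −0.81 and −0.72 within batches 1 and 2). Within single groups r was taken without centring, and was −0.62 over the 6 libraries at 14 days, 0.23 over the 6 at 4 months and 0.18 over the 5 intact ones. In the intact and 4-month groups both genes had lower means in batch 2. For intact libraries the mean log2 values in batches 1 and 2 were 6.62 and 6.18 (*Ptgs2*) and 8.97 and 8.82 (*Ptger3*). Batch thus enters the r of single groups, and its sign cannot be set against the centred r. The 14-day group includes replicate 6, its highest library in *Ptgs2* (152) and its lowest in *Ptger3* (314), and its value was not recomputed without that library. Over all other POA libraries the centred r was −0.69. Both genes had passed the unadjusted threshold at 4 months, so differences between groups enter r. In the PH the correlation was −0.08 (n = 16), with −0.46 and 0.10 within batches 1 and 2. Points share batch, dissection and group, and these values are descriptions.

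*Ptger1* (EP1, coupled to calcium signaling) was 82.3 to 157 in 15 of the 16 PH libraries and 1005 in 14-day replicate 5, the library with the extreme SV1 and the highest summed value. In the POA, *Ptger1* was 73.3 to 154 in intact libraries, 74.8 to 219 at 14 days and 71.0 to 186 at 4 months. Log2 fold changes at 4 months were 0.00 ± 0.36 (PH) and −0.03 ± 0.22 (POA), with 95% intervals of −0.75 to 0.76 and −0.48 to 0.42.

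The Gs-coupled receptors *Ptger2* (EP2) and *Ptger4* (EP4) had lowest values of 2.98 and 4.21 times the floor. Among the 1000 genes nearest in level, the residual SD of *Ptger2* was at percentile 37.3 in the PH and 14.6 in the POA. That of *Ptger4* was at percentile 3.3 in the PH and 53.2 in the POA. *Ptger2* was 66.8 to 91.9 in intact PH libraries, 77.7 to 111 at 14 days and 69.1 to 127 at 4 months, and 71.9 to 108 across POA libraries. Its log2 fold change at 14 days in the PH was 0.31 ± 0.17 (adjusted *P* = 1.00, limma) and at 4 months 0.22 ± 0.16. *Ptger4* was 114 to 153 across PH libraries and 94.5 to 173 across POA libraries. Its log2 fold change at 4 months was 0.01 ± 0.12 (PH) and 0.03 ± 0.14 (POA), and the POA interval was −0.27 to 0.33. Noncoding or coding genes on the other strand overlap both (*Gm17173* and *Gm49364* for *Ptger2*, *Ttc33* for *Ptger4*). The library preparation kept strand, but the strand setting used in quantification was not given in the sources used here, so reads of genes that overlap on opposite strands may be divided incorrectly.

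Whether the response to OVX differed between regions was tested as an interaction over all 33 libraries. The methods say that the PH and the POA of the euthanized females were collected. The labels do not match libraries to mice, so the fit treated all libraries as independent, and its SE ignores any shared mouse. No member was called at 14 days or at 4 months, where the share called among 22785 genes was 0.00439% and 0.00878%, and at an unadjusted *P* under 0.05 0 of 10 members passed at either time (3.07% and 3.68% of all genes). For *Ptgs2* the difference of the log2 fold changes, PH minus POA, was 0.19 ± 0.46 at 14 days and 0.08 ± 0.46 at 4 months. For *Ptger3* it was −0.04 ± 0.19 and 0.17 ± 0.19. Differences of these sizes are within the spread between libraries, and they do not show that the regions responded alike.

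The genes around the members in the pathway were examined by lists. Of 13 genes for phospholipases and arachidonate supply, 12 were tested and 0 called in any comparison. *Acsl4*, an acyl-CoA synthetase that takes up free arachidonate, had log2 fold changes of −0.19 ± 0.06 against intact (unadjusted *P* = 0.0024, adjusted *P* = 0.288, limma) and −0.12 ± 0.05 against 14 days at 4 months in the POA. *Pla2g4a*, the cytosolic phospholipase A2, had 0.39 ± 0.16 at 14 days in the POA (adjusted *P* = 0.796), *Pla2g6* −0.16 ± 0.06 at 4 months in the POA, *Pla2g4b* −0.58 ± 0.26 at 4 months in the PH and *Pla2g4e* −0.33 ± 0.15 between 4 months and 14 days in the PH. These were the members of that list with an unadjusted *P* under 0.05.

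Of 9 other prostanoid synthases, 8 were tested and 0 called. *Tbxas1*, thromboxane synthase, had log2 fold changes of 0.37 ± 0.13 against intact (adjusted *P* = 0.399, limma) and 0.28 ± 0.12 against 14 days at 4 months in the POA. *Akr1b8* had 0.38 ± 0.14 (14 days) and 0.35 ± 0.14 (4 months) in the POA. Of 5 other prostanoid receptors 3 were tested, and 0 passed even at an unadjusted *P* under 0.05. Of 7 genes for prostanoid transport and breakdown 6 were tested, and *Abcc4*, an exporter of prostaglandins, had 0.42 ± 0.12 at 4 months in the PH (unadjusted *P* = 0.0019, adjusted *P* = 0.417, limma) and 0.28 ± 0.11 against 14 days.

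Of 14 pyrogenic cytokines and their receptors, 8 were tested and 0 called. *Il1b*, *Il6* and *Tnf*, cytokines that induce COX-2 in fever, were not among the tested genes: *Tnf* stayed under 2 times the floor in all libraries of both regions, and *Il1b* and *Il6* did so in all PH libraries. *Tnfrsf1a*, the TNF receptor 1 gene, had a log2 fold change of 0.26 ± 0.09 at 4 months in the PH (adjusted *P* = 0.635, limma), and *Il6ra* and *Tlr4* had 0.29 ± 0.13 and 0.27 ± 0.12 at 14 days in the POA (adjusted *P* = 0.805 and 0.797).

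Among 20 immediate early genes, a class with which *Ptgs2* shares its rapid induction in neurons, 3 rose in the POA at 4 months against intact and the same 3 against 14 days. *Btg2*, an antiproliferative gene, was 395 to 705 in intact POA libraries, 378 to 532 at 14 days and 774 to 962 at 4 months (log2 fold change 0.89 ± 0.11 against intact, adjusted *P* = 0.0019, limma). *Dusp1*, a phosphatase of MAP kinases, was 566 to 906, 500 to 781 and 860 to 1317 (0.68 ± 0.09, adjusted *P* = 0.0027). *Npas4*, an activity-dependent transcription factor, was 122 to 285, 100 to 256 and 234 to 354 (0.74 ± 0.14, adjusted *P* = 0.0427). Against 14 days their log2 differences were 0.95, 0.69 and 0.91. For the rest of the list at 4 months against intact in the POA, *Egr1* (−0.49 ± 0.17), *Fosb* (−0.47 ± 0.19), *Nr4a3* (−0.84 ± 0.21) and *Per1* (−0.31 ± 0.10) had negative values and *Ccn1* (0.50 ± 0.12), *Ier2* (0.38 ± 0.12) and *Klf4* (0.34 ± 0.13) positive ones at an unadjusted *P* under 0.05, and the median over the list was 0.16. At 14 days against intact in the POA 0 were called by limma, 0 were higher and 6 lower at an unadjusted *P* under 0.05, and the median was −0.26. At 4 months against 14 days 10 were higher and 1 lower at that threshold, 17 of 20 had positive values and the median was 0.47. With no covariate, 1 of the pathway and early genes was called in each of the 2 comparisons, with only the 2 groups in the fit 1 was called against intact, and within either batch alone 0 were. In the PH 0 of 20 were called by limma, and at an unadjusted *P* under 0.05 1 was lower at 14 days, 6 were higher and 1 lower at 4 months, and 7 were higher at 4 months than at 14 days.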

How the data were processed

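Bulk RNA-seq of dissected, flash-frozen PH and POA was analyzed in 33 libraries, grouped from their labels. The authors pseudoaligned reads with kallisto (mouse build mm39), imported them with tximport and used DESeq2 with SV1 from smartSVA. What was analyzed is the table the authors deposited, a normalized linear signal with decimals; the step that made it is not given in the sources used here, and counts and depth are unknown. A component appears subtracted from it, so levels were compared within a region only, and without length scaling not between genes.

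The 1259 of 42824 entries that name no gene were set aside. Log2 values were taken without a pseudocount. Genes entered a fit if at 2 times the floor (22.4) or more in as many libraries as the smallest group has: 21821 for the PH, 21165 for the POA. limma (3.58.1, R 4.3.3; trend and robust) modeled the 3 groups within each region with SV1, estimated by iteratively reweighted surrogate variable analysis rewritten in base R with 5 rounds, in place of the study's count test, which these values do not allow. Two-sided *P* values had Benjamini-Hochberg adjustment across every gene in the fit, with calls under 0.05. The fits were tested on simulated data with independent normal noise and a random shared factor. That simulation held no batches, outlying library or floor, so it does not cover these features of the data. Values after ± are SE beside fold changes and SD beside means.

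The members and lists were chosen with earlier results of these data known. The list of cortex and hippocampus genes was shortened after its values were seen, because some items are not reported here. Named genes are the 10 members, pathway genes called or with an unadjusted *P* under 0.05, and the 5 protein-coding genes most correlated with *Ptgs2* and *Ptgds* in each region; correlations carry no *P*. Gene positions are from GENCODE M39 (GRCm39). Python 3.11.15, numpy 2.4.6, pandas 2.3.3 and matplotlib 3.10.9 were used. The alternatives tried were other covariates, the replicate number as a block, other filters and log offsets, limma without trend, 2 groups alone, single batches, each library left out, and 3 alternatives added after seeing the data.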

Additional observations from a re-analysis of the deposited data

Results flagged for a closer look

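In 5 of 60 groups of member values (8.33%), 1 library stood apart from the rest of its group by Dixon's criterion at 95%, which chance meets in about 1 in 20 groups. *Ptgs2* was 157 in PH intact replicate 1, the highest of its group. *Ptger1* was 1005 in PH 14-day replicate 5, the highest. *Ptgs1* was 395 in POA 4-month replicate 3, the lowest. *Ptger2* was 71.9 in POA 4-month replicate 4, the lowest. *Ptger3* was 424 in PH intact replicate 2, the lowest.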

How the results depend on the processing

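Of 2464 member fold changes recomputed under alternatives, 2437 moved by less than 1 SD between libraries, 25 by more and 2 passed the threshold. Not counted are subtraction of the floor, which by construction leaves values above the floor almost as they were, and an added covariate from the cortex and hippocampus list, whose genes were chosen for likeness to *Ptgs2*. Signs changed in 220, for 56 of 80 fold changes or region differences, none called. The count of members called at 4 months against intact in the POA was 0, and 1 (*Ptgs2*) with SV1 and batch and, added after seeing the data, with batch in place of SV1 without POA 14-day replicate 6. Its adjusted *P* was 0.0557 to 0.375 with each library left out in turn and 0.0219 to 1.00 over the other alternatives (limma). Pathway and early genes called there were 3, and 1 with no covariate or only the 2 groups, and 0 with either batch alone. Against 14 days they were 3, and 1 with no covariate and 0 with either batch alone; leaving out each library gave 2 to 3 and 3 to 4. In the PH between 4 months and 14 days, 2 in place of 0 were called with batch and without PH 14-day replicate 5 (added).

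The labels do not say that a replicate number is shared, so numbers were not taken as pairs. Same-numbered pairs correlated above 0.1 in 9 of 14 cases in the PH, 14 of 16 in the POA and 14 of 16 between regions. The lowest r, −0.344, was that between regions for 14-day replicate 5. Pairs within a region join libraries of different groups, which cannot come from the same mouse. Pairs within the POA passed 0.1 as often as pairs between regions, so this threshold cannot tell shared mice from other shared variation. Whether same-numbered PH and POA libraries came from the same mouse was not settled. Centred within batch, r was −0.18 to 0.23 in the PH and −0.21 to 0.20 in the POA. With the replicate number as a block, no member was called, *Ptgs2* in the POA at 4 months was 0.83 (0.72 in the PH), and pathway genes called were 0 against intact and 5 against 14 days in the POA.

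Unknown depth, groups of 4 to 6 libraries and low values of *Ptgs2*, 2.54 to 16.5 times the floor, limit precision.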
